A study of Mus musculus with 10 samples.

Results

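The hexosamine pathway and O-GlcNAc cycling were followed through 9 genes, Gfpt1, Gfpt2, Gnpnat1, Pgm3, Uap1, Ogt, Nagk, Gnpda1 and Renbp, which were picked by symbol from the 55401 gene identifiers of an RNA-seq table and were all found in it. The RNA came from limb muscle of wild-type ICR mouse foetuses at ED18.5, in 5 samples whose dams had gestational diabetes mellitus (GDM) and 5 from control dams (CTR). GDM dams had been injected with 100 mg/kg streptozotocin, which destroys the insulin-producing cells of the pancreas, at GD 6.5 and GD 12.5, and CTR dams with the buffer that dissolves it. The model therefore exposes the foetus to high maternal glucose in the later part of gestation, after a toxin given to the dam. Skin and bones were taken off the limbs, according to the methods, and male foetuses are named in the results text of the paper and not in its methods for this tissue. The labels give neither sex nor litter and call the material a mixture of cells, so each p measures the spread between these samples and not between dams.

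The hexosamine pathway takes a small share of the fructose-6-phosphate of glycolysis and turns it, with glutamine, acetyl-CoA and UTP, into UDP-GlcNAc. Gfpt1 and Gfpt2 encode the amidotransferases of the first and rate-limiting step, Gnpnat1 the acetyltransferase, Pgm3 the mutase and Uap1 the pyrophosphorylase that makes UDP-GlcNAc. Ogt encodes the transferase that places single GlcNAc residues on serine and threonine of nuclear and cytosolic proteins, and Oga the enzyme that removes them. Nagk phosphorylates free GlcNAc, Gnpda1 runs the first step backwards by deaminating glucosamine-6-phosphate, and Renbp interconverts free GlcNAc and N-acetylmannosamine. In skeletal muscle the pathway is known as a sensor of glucose supply, and inherited loss of human GFPT1 function causes a congenital myasthenic syndrome.

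The sequences before the start sites of Gfpt1, Gfpt2 and Uap1 are shown because these are the enzymes at the entry and the end of UDP-GlcNAc synthesis and their RNA was higher in every GDM sample than in any CTR sample. Each is the 250 bases before the RefSeq start site (GRCm38.p6), 5′ to 3′ on the strand of the gene, and capitals mark every match to a motif searched. They lie at chr6:87042596-87042845 (plus strand), chr11:49793905-49794154 (plus strand) and chr1:170174965-170175214 (minus strand).
Gfpt1: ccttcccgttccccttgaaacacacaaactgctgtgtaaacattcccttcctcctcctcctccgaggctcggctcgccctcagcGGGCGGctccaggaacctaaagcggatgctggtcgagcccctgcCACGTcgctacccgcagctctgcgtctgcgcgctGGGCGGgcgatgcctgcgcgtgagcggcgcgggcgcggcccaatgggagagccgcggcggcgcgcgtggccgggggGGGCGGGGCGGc
Gfpt2: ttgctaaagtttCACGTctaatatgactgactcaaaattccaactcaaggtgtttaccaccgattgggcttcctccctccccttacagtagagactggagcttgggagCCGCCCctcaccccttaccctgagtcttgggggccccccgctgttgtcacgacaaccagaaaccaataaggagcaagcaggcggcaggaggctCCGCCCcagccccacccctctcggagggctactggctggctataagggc
Uap1: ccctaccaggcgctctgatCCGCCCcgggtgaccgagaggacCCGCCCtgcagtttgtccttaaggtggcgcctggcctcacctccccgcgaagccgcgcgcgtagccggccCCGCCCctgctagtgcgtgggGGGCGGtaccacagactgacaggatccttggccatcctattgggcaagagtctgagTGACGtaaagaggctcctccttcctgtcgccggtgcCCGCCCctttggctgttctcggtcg
The motifs were searched on both strands. They were the cAMP response element TGACGTCA and its shorter form TGACG, the unfolded protein response element core TGACGTGG, the E-box CACGTG, the hypoxia response core ACGTG and the GC box GGGCGG. The letters TGACG lie within the full cAMP element and the unfolded protein response core, and ACGTG within the E-box and the unfolded protein response core. RefSeq entries were matched for 7 of the 9 genes, with 2 for Ogt, and Gnpnat1 and Gnpda1 had none.

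GC boxes were the most frequent match. Gfpt1 held 4, Gfpt2 2 and Uap1 5, and the windows of Pgm3 (5), Renbp (2), Nagk (1) and Ogt (1 in each entry) held them too. At least 1 was found in 32.7% of 32851 mouse promoter windows of this length. How many each of those windows held was not computed, so the numbers per gene have no background here. ACGTG was found 1 time in Gfpt1 and 1 time in Gfpt2, and in no other matched member, with 16.6% of all windows holding it. TGACG was found 1 time, in Uap1, with 17.8% of all windows holding it. None of the matched members held TGACGTCA (1.55% of all windows), TGACGTGG (0.563%) or CACGTG (6.02%). These are letter matches in a short window and say nothing of binding.

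The values are FPKM, fragment numbers divided by transcript length and by the mapped total of the sample, so levels of different genes can be set side by side. Depth, estimated from the lowest values of single-transcript genes, was about 17.9 to 21.1 M fragments in GDM samples and 14.9 to 16.7 M in CTR samples, and depth and group cannot be told apart. Mitochondrially encoded genes took 9.43 to 12.3% of summed FPKM in GDM and 16.3 to 19.0% in CTR. Markers of muscle fibres such as Acta1, Ckm and Ttn were expressed in all samples, with a summed FPKM of 19616 to 27228 in GDM and 33788 to 40059 in CTR. Of these 10 genes 7 were called lower in GDM and 1, embryonic myosin Myh3, higher, by the limma comparison described below. The shares over all genes tested were 10.9% lower and 35.1% higher. GDM replicates 1 and 3 held keratin RNA of the epidermis, with a summed FPKM of 458 and 98.1 over 6 markers against 1.93 to 4.68 in the other 8 samples. In bulk RNA, fewer cells of a type and less RNA per cell cannot be told apart.

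Genes with at least 1 FPKM in at least 5 samples were compared with limma after log2 transformation with a pseudocount of 1. Benjamini-Hochberg adjustment ran over the 13363 genes tested, and an adjusted p under 0.05 was called. Fold changes (GDM against CTR) refer to FPKM + 1, so for weakly expressed genes they come out smaller than the ratio of FPKM. Gnpda1 did not reach the filter. Of the 8 members tested, 5 were higher in GDM (Gfpt1, Gfpt2, Gnpnat1, Uap1 and Renbp), 0 were lower and 3 did not pass (Pgm3, Ogt and Nagk). Among all genes tested, 46% were called, 35.1% higher and 10.9% lower. The median log2 fold change was 0.38 over the tested members and 0.15 over all tested genes. After each sample was scaled by its median ratio to the others, which moved the median of all genes by -0.15, 38.4% of genes were called, 19.9% higher and 18.6% lower, and the members called higher were 2, Gfpt1 and Gfpt2. TPM scaling moved it by 0.12 the other way, with 56.2% called, 49.1% higher and 7.13% lower, and 6 members were called higher.

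**Figure D1:**
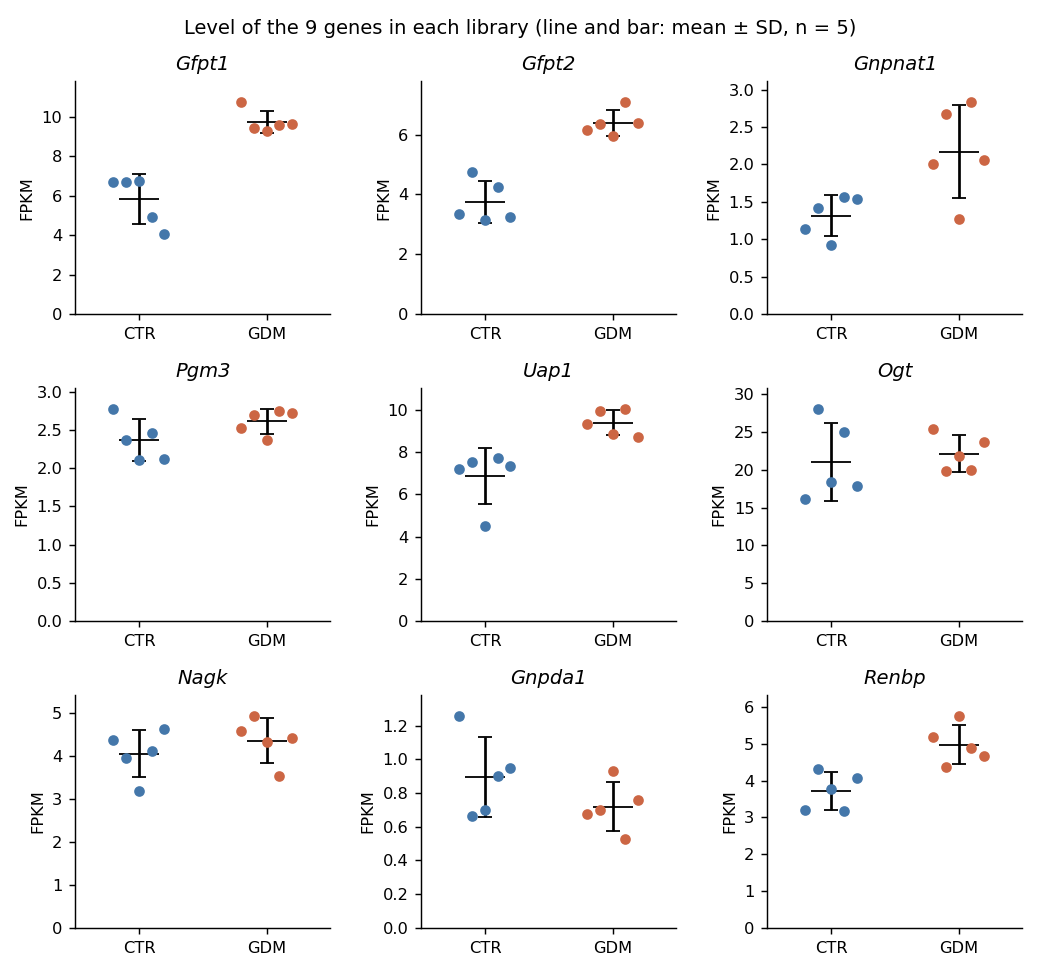
FPKM (vertical axis, from 0) of the 9 genes in each of the 5 CTR and 5 GDM samples, with points for samples and lines and bars for mean ± SD. GDM points lie above every CTR point for Gfpt1, Gfpt2, Uap1 and Renbp, and the groups overlap for the other 5 genes.

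Both amidotransferase genes, at the entry of the pathway, were higher in GDM. Gfpt1 (chromosome 6, 87042846 to 87092197, plus strand, GRCm38) had 10.7, 9.41, 9.27, 9.58 and 9.63 FPKM in GDM replicates 1 to 5 and 6.71, 6.70, 6.73, 4.94 and 4.08 FPKM in CTR replicates 1 to 5. The lowest GDM sample was above the highest CTR sample, and CTR replicates 4 and 5 were below the other 3. The means were 9.72 ± 0.578 and 5.83 ± 1.25 FPKM (SD, n = 5), 1.67 times as high in GDM. The log2 fold change was 0.67 (SE 0.12, 95% interval 0.40 to 0.94, limma adjusted p = 0.0012), and the 2-sided exact permutation test gave p = 0.0079, which is the smallest p it allows with 5 against 5. Exact p-values are unadjusted, and were computed for the 9 members and for every gene of the lists.

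Gfpt2 (chromosome 11, 49794178 to 49838613, plus strand), the paralogue, had 6.16, 6.34, 5.96, 7.08 and 6.39 FPKM in the GDM samples and 3.34, 4.74, 3.15, 4.25 and 3.24 FPKM in the CTR samples. Again no GDM sample reached down to the CTR range. The means were 6.39 ± 0.423 and 3.74 ± 0.7096 FPKM (SD, n = 5), a ratio of 1.71. The log2 fold change was 0.65 (SE 0.098, 95% interval 0.43 to 0.87, limma adjusted p = 0.00043, exact permutation p = 0.0079). Gfpt1 and Gfpt2 were the members called in each of the 18 alternative fits, with log2 fold changes of 0.51 to 0.80 and 0.50 to 0.77. How reads that fit both paralogues were assigned is not stated.

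In both genes the GDM samples lay closer together than the CTR samples. The coefficient of variation of Gfpt1 was 5.94% in GDM and 21.3% in CTR, and that of Gfpt2 was 6.62% and 19.0%. Uap1 showed the same order (6.36% and 19.3%), and so did Ogt (10.9% and 24.4%), Pgm3 (6.12% and 11.6%) and Renbp (10.7% and 13.8%). Nagk (11.9% and 13.6%) and Gnpda1 (20.2% and 26.6%) did so too, so the order was not particular to the members called higher. Gnpnat1 alone had the reverse order, with 28.5% in GDM and 20.8% in CTR. These spreads were not tested.

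Of the 3 genes between the amidotransferases and UDP-GlcNAc, Gnpnat1 and Uap1 were higher in GDM and Pgm3 did not pass. Gnpnat1 (chromosome 14, 45376334 to 45404913, minus strand), which acetylates glucosamine-6-phosphate, had 2.004, 2.68, 1.27, 2.83 and 2.07 FPKM in GDM and 1.14, 1.42, 0.928, 1.57 and 1.54 FPKM in CTR. GDM replicates 1, 2, 4 and 5 were above all CTR samples, and replicate 3 lay within their range. The means were 2.17 ± 0.619 and 1.32 ± 0.274 FPKM (SD, n = 5), with a log2 fold change of 0.44 (SE 0.14, 95% interval 0.12 to 0.76, limma adjusted p = 0.030, exact permutation p = 0.032). The call was lost without GDM replicate 2, 4 or 5 or CTR replicate 1 or 3 (limma adjusted p = 0.051 to 0.072), without the filter (0.063), with median ratio scaling (0.094) and with quantile normalization (0.11). In the annotation 3878 of its 4735 exon bases (81.9%) overlap Styx on the opposite strand, at 1.21 ± 0.750 FPKM in GDM and 0.619 ± 0.300 in CTR (SD, n = 5), and the sources do not say if counting was strand-specific, so the 2 genes cannot be told apart there.

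Pgm3 (chromosome 9, 86554377 to 86571842, minus strand), which moves the phosphate of GlcNAc-6-phosphate, had 2.52, 2.69, 2.37, 2.74 and 2.73 FPKM in GDM and 2.77, 2.36, 2.11, 2.46 and 2.12 FPKM in CTR. The highest single value was that of CTR replicate 1, and the groups overlapped. The means were 2.61 ± 0.160 and 2.36 ± 0.273 FPKM (SD, n = 5), with a log2 fold change of 0.10 (95% interval -0.05 to 0.26, limma adjusted p = 0.26, exact permutation p = 0.13). The value was -0.02 with median ratio scaling, and with TPM scaling it was 0.21 and was called (limma adjusted p = 0.040). Dop1a on the opposite strand covers 28.3% of the exon bases of Pgm3 and had 1.02 ± 0.0717 FPKM in GDM and 0.901 ± 0.0394 in CTR (SD, n = 5).

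Uap1 (chromosome 1, 170141938 to 170174957, minus strand) had 9.34, 9.94, 8.88, 10.04 and 8.73 FPKM in GDM and 7.22, 7.53, 4.51, 7.71 and 7.32 FPKM in CTR. All GDM samples were above all CTR samples, and CTR replicate 3 was well below the other 4. The means were 9.38 ± 0.597 and 6.86 ± 1.32 FPKM (SD, n = 5), 1.37 times as high in GDM, with a log2 fold change of 0.42 (SE 0.12, 95% interval 0.15 to 0.68, limma adjusted p = 0.015, exact permutation p = 0.0079). Without CTR replicate 3 the log2 fold change was 0.30 (limma adjusted p = 0.0032). With median ratio scaling the groups still did not overlap, but the limma adjusted p was 0.098. Of all genes tested, 27.2% had every GDM sample above every CTR sample, as 4 members did. Uap1l1, a relative of Uap1, had 2.03 ± 0.682 and 1.85 ± 0.104 FPKM (SD, n = 5, limma adjusted p = 0.77).

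Of the enzymes that add and remove O-GlcNAc, Ogt, which adds it, did not pass the test. Ogt (chromosome X, 101640060 to 101684351, plus strand) had 25.4, 19.8, 21.8, 19.9 and 23.6 FPKM in GDM and 16.2, 28.0, 18.4, 25.0 and 17.8 FPKM in CTR. CTR replicates 2 and 4 were at or near the top of all 10 samples and CTR replicate 1 at the bottom, so that the CTR range enclosed the whole GDM range. The means were 22.1 ± 2.42 and 21.1 ± 5.15 FPKM (SD, n = 5), with a log2 fold change of 0.09 (95% interval -0.23 to 0.41, limma adjusted p = 0.64, exact permutation p = 0.56). The value was -0.08 with median ratio scaling and 0.23 with TPM scaling, and in none of the 18 alternative fits did it pass.

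Oga, the glycosidase of the cycle and a further gene of the pathway outside the 9, had 9.25, 9.61, 9.58, 9.44 and 8.46 FPKM in GDM and 10.2, 10.7, 10.9, 10.1 and 10.3 FPKM in CTR. The highest GDM sample lay below the lowest CTR sample, as in 7.43% of all genes tested. The means were 9.27 ± 0.475 and 10.4 ± 0.349 FPKM (SD, n = 5), and the log2 fold change was -0.16 (SE 0.051, 95% interval -0.27 to -0.04, limma adjusted p = 0.028, exact permutation p = 0.0079). The call depended on the scaling, with -0.32 (limma adjusted p = 0.00090) after median ratio scaling and -0.02 (0.71) after TPM scaling, and it was lost without GDM replicate 1 or 5 or CTR replicate 2 or 3 (0.050 to 0.067). The ratio of Ogt to Oga within a sample was 2.40 ± 0.350 in GDM (2.06 to 2.80) and 2.02 ± 0.494 in CTR (1.58 to 2.63) (SD, n = 5).

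**Figure D2:**
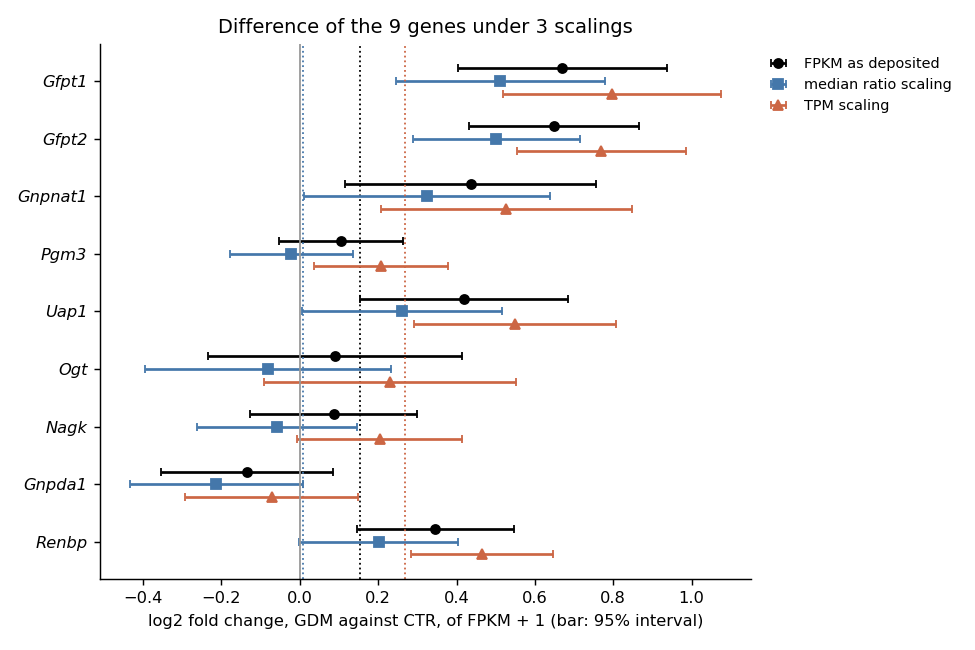
Log2 fold change of FPKM + 1 (horizontal axis, GDM against CTR) of the 9 genes with 95% intervals, for FPKM as deposited (circles), median ratio scaling (squares) and TPM scaling (triangles), with dotted lines at the median of all tested genes under each. Gfpt1 and Gfpt2 lie furthest to the right under all 3 scalings (0.67, 0.51 and 0.80 for Gfpt1), while Pgm3, Ogt and Nagk lie on either side of 0 depending on the scaling.

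The genes of GlcNAc salvage and of the reverse step were divided. Renbp (chromosome X, 73922121 to 73930850, minus strand) had 5.19, 4.38, 5.76, 4.88 and 4.66 FPKM in GDM and 3.20, 4.32, 3.76, 3.18 and 4.08 FPKM in CTR. The groups did not overlap, although GDM replicate 2 and CTR replicate 2 lay next to each other. The means were 4.97 ± 0.531 and 3.71 ± 0.513 FPKM (SD, n = 5), 1.34 times as high in GDM, with a log2 fold change of 0.35 (SE 0.091, 95% interval 0.15 to 0.55, limma adjusted p = 0.0099, exact permutation p = 0.0079). With median ratio scaling the value was 0.20, the groups overlapped and the call was lost (limma adjusted p = 0.11, exact permutation p = 0.071).

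Nagk (chromosome 6, 83794982 to 83804018, plus strand) had 4.59, 4.94, 4.33, 3.53 and 4.43 FPKM in GDM and 4.38, 3.97, 3.18, 4.13 and 4.64 FPKM in CTR. The groups shared most of their range. The means were 4.36 ± 0.522 and 4.06 ± 0.551 FPKM (SD, n = 5), with a log2 fold change of 0.09 (95% interval -0.13 to 0.30, limma adjusted p = 0.50, exact permutation p = 0.41), and the value was -0.06 with median ratio scaling.

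Gnpda1 (chromosome 18, 38327535 to 38339003, minus strand) was the least expressed member, with 0.676, 0.702, 0.932, 0.530 and 0.757 FPKM in GDM and 1.26, 0.663, 0.700, 0.902 and 0.946 FPKM in CTR. CTR replicate 1 was the sample above 1 FPKM. The means were 0.719 ± 0.145 and 0.894 ± 0.238 FPKM (SD, n = 5). In the fit without the filter the log2 fold change was -0.13 (95% interval -0.35 to 0.08, limma adjusted p = 0.41, exact permutation p = 0.25), and it was negative in each of the 18 alternative fits and past the threshold in none. Gnpda2, which catalyses the same reaction, had 1.58 ± 0.151 and 1.66 ± 0.315 FPKM (SD, n = 5, limma adjusted p = 0.76). Amdhd2, the deacetylase of GlcNAc-6-phosphate, had 1.76 ± 0.178 and 2.47 ± 0.609 FPKM (SD, n = 5) and was lower in GDM, with a log2 fold change of -0.32 (limma adjusted p = 0.037). Amdhd2 stayed past the threshold in 9 of the 18 alternative fits, and without GDM replicate 1, 2, 4 or 5 or CTR replicate 1 the limma adjusted p was 0.065 to 0.076.

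In CTR muscle the order of levels was Ogt (21.1 FPKM), Uap1 (6.86), Gfpt1 (5.83), Nagk (4.06), Gfpt2 (3.74), Renbp (3.71), Pgm3 (2.36), Gnpnat1 (1.32) and Gnpda1 (0.894). Neighbours whose sample ranges did not overlap were Ogt and Uap1, Renbp and Pgm3, and Pgm3 and Gnpnat1, so Uap1 to Renbp form a chain of overlapping levels. In GDM muscle the order was Ogt (22.1 FPKM), Gfpt1 (9.72), Uap1 (9.38), Gfpt2 (6.39), Renbp (4.97), Nagk (4.36), Pgm3 (2.61), Gnpnat1 (2.17) and Gnpda1 (0.719). There Gfpt1 and Uap1, Renbp and Nagk, and Pgm3 and Gnpnat1 overlapped, and the other neighbours did not. Gfpt2 lay below Nagk in the CTR order and above it in the GDM order.

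Ratios between members within a sample do not depend on how the sample was scaled, and are given here as a description. Gfpt2 to Gfpt1 was 0.659 ± 0.0593 in GDM and 0.665 ± 0.175 in CTR (SD, n = 5). The sum of Gfpt1 and Gfpt2 stood at 23.3 ± 5.53 times Gnpda1 in GDM (16.3 to 31.4) and 11.5 ± 4.13 times in CTR (7.73 to 17.2). Both paralogues thus kept a like mean ratio to each other. The forward genes stood higher against Gnpda1 in GDM with a narrow overlap, between GDM replicate 3 and CTR replicate 2. Gnpda1 did not reach the filter, so this ratio rests on low values. Gnpda2, which catalyses the same reverse reaction, was not part of it.

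Ogt to Gfpt1 was 2.27 ± 0.170 in GDM (2.08 to 2.45) and 3.75 ± 1.14 in CTR (2.41 to 5.07) (SD, n = 5). Nagk to Gfpt1 was 0.450 ± 0.0575 in GDM (0.368 to 0.526) and 0.738 ± 0.258 in CTR (0.473 to 1.14), and Uap1 to Gfpt1 was 0.968 ± 0.0830 and 1.25 ± 0.440 (SD, n = 5). The GDM and CTR ranges overlapped for all 6 ratios computed.

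**Figure D3:**
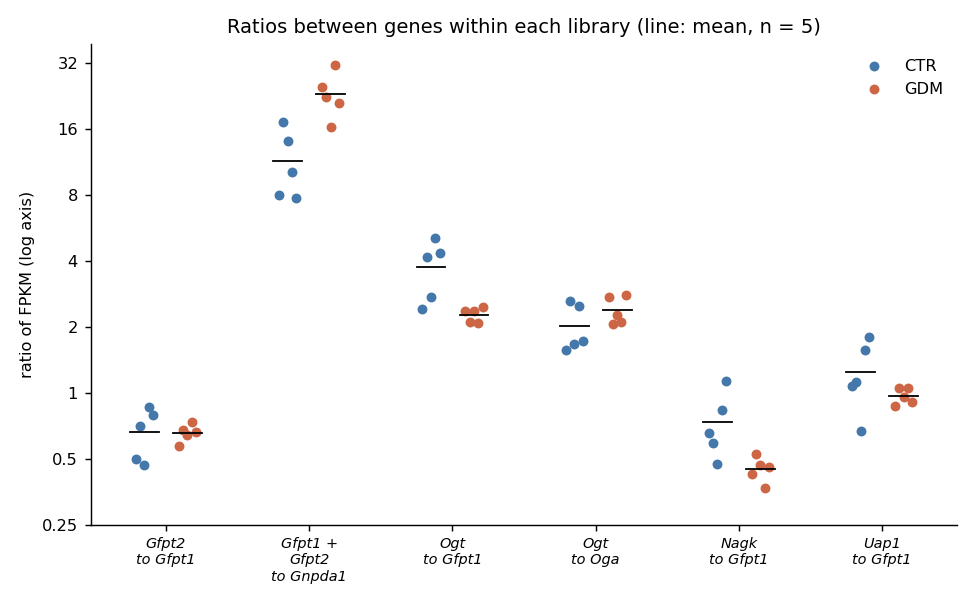
Ratio of FPKM within each sample (vertical axis, log scale) for 6 gene pairs, with a point for each of the 5 CTR and 5 GDM samples and a line at the mean. The GDM points of Ogt to Gfpt1 (2.08 to 2.45) cluster at and below the lower end of the CTR points (2.41 to 5.07). Those of Gfpt1 plus Gfpt2 to Gnpda1 (16.3 to 31.4) lie at and above the upper end of the CTR points (7.73 to 17.2).

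Beside the members, 11 other genes of UDP-GlcNAc turnover and O-GlcNAc were listed, 10 of which were tested. Of these 2 were higher in GDM (Nans and Npl), 2 were lower (Oga and Amdhd2) and 6 did not pass. Over all genes tested, 35.1% were called higher and 10.9% lower. The median log2 fold change was 0.11 for the list and 0.15 over all genes. With median ratio scaling 0 of the 10 were higher and 2 lower, against 19.9% and 18.6% of all genes. With TPM scaling 4 of the 10 were higher and 0 lower, against 49.1% and 7.13% of all genes.

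**Figure D4:**
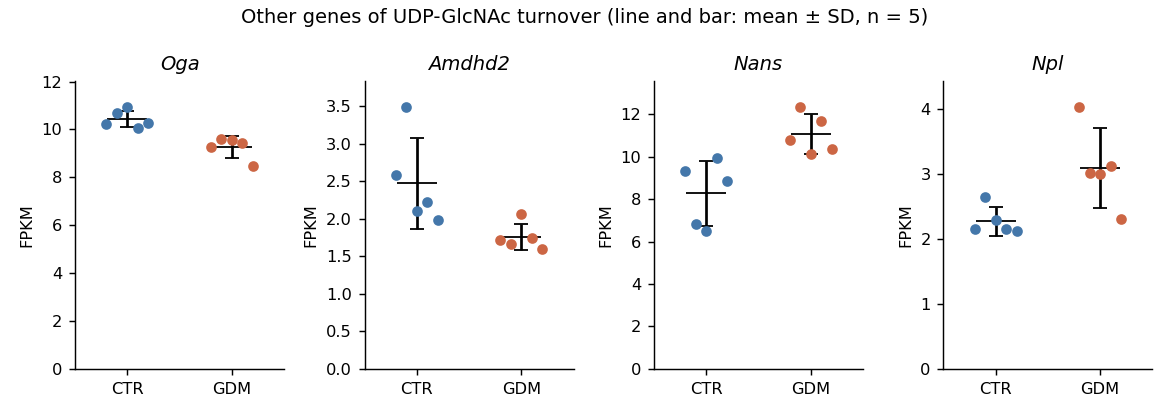
FPKM (vertical axis, from 0) of Oga, Amdhd2, Nans and Npl in each of the 5 CTR and 5 GDM samples, with mean ± SD. Oga (9.27 against 10.4) and Amdhd2 (1.76 against 2.47) had lower means in GDM, and Nans (11.1 against 8.28) and Npl (3.09 against 2.27) had higher means.

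UDP-GlcNAc also feeds the synthesis of sialic acid. Its genes are Gne, the epimerase and kinase of the first steps, Nans, which joins N-acetylmannosamine-6-phosphate with phosphoenolpyruvate, Nanp, the phosphatase, and Cmas, which makes CMP-sialic acid. Nans had 11.1 ± 0.930 FPKM in GDM (10.1 to 12.3) and 8.28 ± 1.53 in CTR (6.51 to 9.93) (SD, n = 5), with no overlap and a log2 fold change of 0.39 (limma adjusted p = 0.016), which was lost with median ratio scaling (0.12). Gne had 2.75 ± 0.545 and 2.32 ± 0.241 FPKM (SD, n = 5, limma adjusted p = 0.23) and Cmas 7.47 ± 0.529 and 7.07 ± 0.719 FPKM (SD, n = 5, limma adjusted p = 0.46). Npl, the lyase that breaks sialic acid down, had 3.09 ± 0.613 and 2.27 ± 0.217 FPKM (SD, n = 5, log2 fold change 0.31, limma adjusted p = 0.029), and stayed past the threshold in 7 of the 18 alternative fits. Nanp was listed at the floor of 0.0001 FPKM in 7 samples.

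Of the remaining genes of this list, Eogt, which places O-GlcNAc on secreted proteins in the endoplasmic reticulum, had 4.08 ± 0.406 and 3.60 ± 0.154 FPKM (SD, n = 5, log2 fold change 0.14, limma adjusted p = 0.12). Hcfc1, a nuclear cofactor that Ogt modifies and cleaves, had 13.4 ± 0.713 and 10.2 ± 4.26 FPKM (SD, n = 5, limma adjusted p = 0.16). Its CTR spread came from replicates 4 (6.48 FPKM) and 5 (4.92), with the other 3 at 12.0 to 14.5 FPKM, and these were also the 2 CTR samples with the lowest Gfpt1.

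Genes for uptake and first use of the substrates were called in both directions. Of 9 tested genes for uptake and use of glucose and glutamine, 4 were higher, 3 lower and 2 did not pass. Over all genes tested, 35.1% were called higher and 10.9% lower. The median log2 fold change was 0.46 for these genes and 0.15 over all genes. Slc2a1, the glucose transporter GLUT1, had 15.8 ± 3.15 FPKM in GDM (12.4 to 21.0) and 1.89 ± 0.417 in CTR (1.37 to 2.46) (SD, n = 5, log2 fold change 2.53, limma adjusted p = 3.8e-06). Slc2a4, the insulin-responsive GLUT4 of muscle and fat, had 23.2 ± 2.58 and 44.8 ± 3.76 FPKM (SD, n = 5, log2 fold change -0.92, limma adjusted p = 3.2e-05). Hexokinase 1 (Hk1) had 6.77 ± 0.953 and 2.93 ± 0.238 FPKM (SD, n = 5, log2 fold change 0.98, limma adjusted p = 3.8e-05).

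Over all genes tested, 35.1% were called higher and 10.9% lower, with a median log2 fold change of 0.15. Among users of UDP-GlcNAc, the transporters that carry it into the secretory pathway had 2 of 3 tested genes higher and 0 lower, with a median of 0.39. They were Slc35d1 (1.87 ± 0.194 and 1.19 ± 0.121 FPKM, SD, n = 5, limma adjusted p = 0.0015) and Slc35b4 (3.78 ± 0.277 and 2.66 ± 0.301 FPKM, SD, n = 5, limma adjusted p = 0.0017). Slc35a3 had 1.96 ± 0.128 and 1.83 ± 0.121 FPKM (SD, n = 5, limma adjusted p = 0.43). Of 16 tested genes that build hyaluronan, N-glycans and other chains from UDP-GlcNAc, 5 were higher, 0 lower and 11 did not pass, with a median of 0.12. The share called higher was thus not above that of all genes tested. With median ratio scaling 4 of the 16 were higher and 3 lower, against 19.9% and 18.6% of all genes tested.

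Has2, the hyaluronan synthase, had 6.92, 6.88, 6.48, 6.94 and 6.47 FPKM in GDM and 2.26, 2.55, 2.26, 2.22 and 1.86 FPKM in CTR. These ranges were far apart, with means of 6.74 ± 0.241 and 2.23 ± 0.244 FPKM (SD, n = 5, log2 fold change 1.26, limma adjusted p = 2.9e-06). Mgat2, which adds a GlcNAc branch to N-glycans, had 19.9 ± 1.06 and 13.4 ± 0.913 FPKM (SD, n = 5, log2 fold change 0.54, limma adjusted p = 7.8e-05). Alg13, part of the enzyme that adds the second GlcNAc of the lipid-linked glycan, had 2.49 ± 0.315 and 1.46 ± 0.0421 FPKM (SD, n = 5, log2 fold change 0.50). Alg14 of the same list did not pass, with 5.02 ± 0.400 and 4.94 ± 0.567 FPKM (SD, n = 5, log2 fold change 0.02, limma adjusted p = 0.84).

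Against 35.1% of all genes tested called higher and 10.9% lower, lysosomal enzymes that free GlcNAc from glycans had 2 of 9 tested genes higher. Of the others 0 were lower and 7 did not pass, and the median log2 fold change was 0.01 against 0.15 over all genes. Those higher were Hexa (39.2 ± 3.52 and 28.5 ± 2.81 FPKM, SD, n = 5, log2 fold change 0.45), a subunit of beta-hexosaminidase, and Naglu (5.55 ± 0.751 and 3.80 ± 0.614 FPKM, SD, n = 5, 0.45), the N-acetylglucosaminidase of heparan sulphate breakdown. Their limma adjusted p-values were 0.0015 and 0.0065. Sgsh, the sulphamidase of the same breakdown, had 1.69 ± 0.247 and 1.98 ± 0.158 FPKM (SD, n = 5, limma adjusted p = 0.15). With median ratio scaling 1 gene of this list was higher and 2 were lower, against 19.9% and 18.6% of all genes tested.

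The spliced form of Xbp1, a factor of the endoplasmic reticulum stress response, is known to induce hexosamine pathway genes in other mouse tissues. Of 16 tested genes of this response, 10 were higher in GDM, 0 lower and 6 did not pass, with a median log2 fold change of 0.52. Over all genes tested, 35.1% were called higher and 10.9% lower, with a median of 0.15. After median ratio scaling 9 of the 16 were higher and 1 lower, against 19.9% and 18.6% of all genes tested. Among the chaperones, Hsp90b1 had 114 ± 4.02 and 70.4 ± 9.22 FPKM (SD, n = 5, log2 fold change 0.70, limma adjusted p = 0.00014). Sdf2l1 had 7.65 ± 0.971 and 3.11 ± 0.828 FPKM (SD, n = 5, log2 fold change 1.09, limma adjusted p = 0.00016), and Pdia4, a disulphide isomerase, 34.7 ± 2.13 and 21.3 ± 3.04 FPKM (SD, n = 5, log2 fold change 0.69). Xbp1 itself had 13.3 ± 1.13 and 11.1 ± 1.49 FPKM (SD, n = 5, log2 fold change 0.24, limma adjusted p = 0.046), with overlapping groups. Its exact permutation p of 0.032 became 0.40 after median ratio scaling. Atf4, Atf6, Ddit3, Dnajb9, Dnajc3 and Sec61b did not pass. Gene-level FPKM does not separate the spliced from the unspliced form of Xbp1. A link between this response and the levels of the members was not tested.

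**Figure D5:**
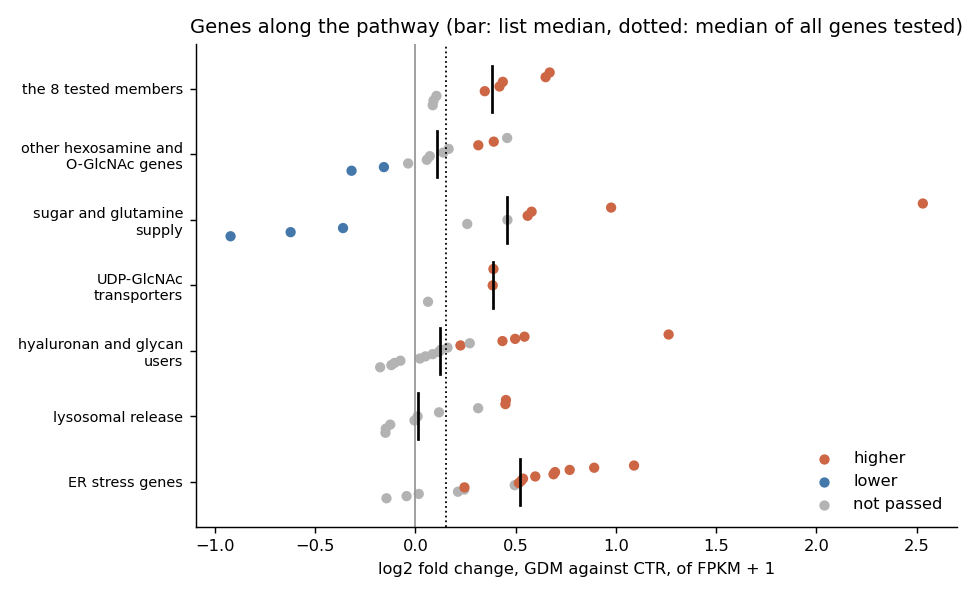
Log2 fold change of FPKM + 1 (horizontal axis, GDM against CTR) of each tested gene in the 7 pathway groups, coloured by the limma call, with a bar at the median of each group and a dotted line at the median of all tested genes (0.15). The medians of the 8 tested members (0.38), the supply genes (0.46), the transporters (0.39) and the endoplasmic reticulum stress genes (0.52) lie to the right of that line, and those of the other 3 groups to the left of it.

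Markers of other cell types were read against the 35.1% of all genes called higher and the 10.9% called lower. Markers of fibroblasts were higher in 4 of 9 genes and lower in 0, while Col3a1, Dcn, Fn1, Postn and Thy1 did not pass. Their median log2 fold change was 0.19 against 0.15 over all genes tested, with a summed FPKM of 2667 to 3380 in GDM and 1678 to 2228 in CTR. Cartilage markers were higher in 6 of 7 tested genes (32.95 to 67.0 against 11.7 to 26.3 for the 10 listed, with Matn1 and Matn3 under 1 FPKM in every sample), and those of dividing cells in 6 of 6 (93.0 to 102 against 40.8 to 66.4). Fat cell markers were lower in 7 of 7 tested genes (63.9 to 83.8 against 358 to 1985), and endothelial markers were higher in 1 and lower in 4 of 7 (100.6 to 116 against 138 to 179). Macrophage markers were higher in 0 and lower in 1 of 8 tested genes, with overlapping sums (85.3 to 119 and 99.7 to 140). Schwann cell markers were higher in 1 and lower in 2 of 6 (28.2 to 34.8 against 52.5 to 198). Those of erythroid cells were higher in 0 and lower in 2 of 7, with overlapping sums (3134 to 7895 and 2587 to 5120). The part of these cell types in the values of the members was not tested. Without the 2 GDM samples that hold keratin RNA, Gfpt1 (log2 fold change 0.65, limma adjusted p = 0.011), Gfpt2 (0.69, 0.0036) and Gnpnat1 (0.61, 0.0069) passed, and Uap1 (0.44, 0.052) and Renbp (0.27, 0.071) did not.

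The genes most like a member over the 10 samples were found by the root mean square difference of log2(FPKM + 1) after each gene was centred on its own mean. For Gfpt1 they were Rcor1 (0.093), Igf2r (0.094) and Slc7a8 (0.10), and for Gfpt2 they were Mn1 (0.081), Polr3d (0.090) and Colec12 (0.095). For Ogt they were Tmem218 (0.088), Rilpl2 (0.10) and Il3ra (0.11), and for Gnpda1 they were Fez1 (0.059), Stat5b (0.072) and Serinc2 (0.076). The 10 samples of each such pair share libraries, depth and group, and no test was made. The measure is not scaled by the spread of a gene. For a gene that varies little on this scale, such as Gnpda1, a small difference therefore says little of shared behaviour.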

How the data were processed

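As deposited, each gene has 1 FPKM value per sample, which the authors made from paired reads of poly(A) RNA with HISAT2 (2.0.4) for mapping and StringTie (1.3.4d) for quantification. The submitters' notes give mm10, the methods give Ensembl, and edgeR and DESeq2 are named without a role. Further scaling between samples and the use of strand in counting are not given in the sources used here. Values of 0 appear as 0.0001. The table also holds fold changes, p-values and calls of the authors' own comparison, which were not used.

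GDM and CTR were compared with limma 3.58.1 (R 4.3.3), with trend and robust set and no covariates, on log2(FPKM + 1) for genes with at least 1 FPKM in at least 5 samples. Members below this filter have values from the fit without it. FPKM of a single gene was also compared with a 2-sided exact permutation test. The count tests could not be used, since depth was not given and was only estimated. The fit was tested on simulated data.

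The members and lists were chosen with earlier results of these data known. Named genes were the members, the 11 other genes of the pathway, up to 3 genes of each further list with the smallest adjusted p, and the 3 genes most like Gfpt1, Gfpt2, Ogt and Gnpda1. Xbp1 and genes named in marker lists or as not past the threshold were chosen after their values were seen. Alternatives were a pseudocount of 0.1, no filter, median ratio scaling, quantile normalization, the replicate number as a block, limma without trend and robust, and leaving out each sample. TPM scaling and leaving out both samples with keratin RNA were chosen after seeing the data. Promoters are from RefSeq and gene coordinates from GENCODE vM21 (GRCm38). Some genes of the pathway are not reported here.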

Additional observations from a re-analysis of the deposited data

Results flagged for a closer look

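In 40 groups of 5 samples (20 genes of the pathway, each in GDM and in CTR), single samples far from the other 4 of their group were sought by Dixon's test (critical value 0.71), and 5 were found. Chance gives about 1 in 20 groups. The CTR group of Nanp is not to be set against that share, since its other 4 values are equal at the floor, which fixes the result of the test whatever the remaining value is. Gfpt1 was 10.7 FPKM in GDM replicate 1, with the others at 9.27 to 9.63. Uap1 was 4.51 FPKM in CTR replicate 3, with the others at 7.22 to 7.71, and this sample also held the high value of Uap1l1, 2.03 FPKM against 1.77 to 1.83. CTR replicate 2 held the high value of Gnpda2, 2.20 FPKM against 1.41 to 1.63. Nanp was 4.20 FPKM in CTR replicate 5 and at the floor of 0.0001 in the other 4 CTR samples.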

How the results depend on the processing

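The count of members higher in GDM was 5 as reported, 2 with median ratio scaling, 2 with quantile normalization and 3 without the 2 GDM samples with keratin RNA, while 0 were lower in every alternative. It was 4 without the filter, 6 with TPM scaling, 5 with a pseudocount of 0.1 and 5 without trend and robust. Leaving out 1 sample at a time gave 4 to 5, and the member lost was Gnpnat1. Same-numbered samples did not deviate together (correlations of -0.072 to -0.019, and in no such pair was each sample closest to the other). The values thus gave no sign that the numbers pair the samples. A pairing with small effects would not show in these correlations. With the replicate number as a block, 5 members were higher, and Oga, Amdhd2 and Npl missed the threshold (limma adjusted p = 0.069, 0.069 and 0.0502). The scaling could not be settled from FPKM alone, depth followed the group, and genes near 1 FPKM, such as Gnpda1 and Gnpnat1, rest on the fewest fragments.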

Other observations

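CTR replicate 2 stood apart in several genes of the supply of the pathway, chosen after their values were seen. Slc1a5, a glutamine transporter, was 28.6 FPKM there and 10.6 to 15.9 in the other CTR samples, and Glul, glutamine synthetase, was 64.8 FPKM and 25.4 to 33.003. Its fat cell markers summed to 1985 FPKM, against 358 to 507 in the other CTR samples. It also had the highest CTR values of Gfpt2 (4.74 FPKM), Ogt (28.0) and Amdhd2 (3.49). Without this sample the log2 fold change was 0.72 for Gfpt2 (limma adjusted p = 0.00019) and -0.22 for Amdhd2 (0.045).

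Nanp, the phosphatase of sialic acid synthesis, was 3.94 FPKM in GDM replicate 3, 9.41 in GDM replicate 4 and 4.20 in CTR replicate 5, and was listed at the floor in the other 7 samples.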
